A study of Homo sapiens with 4 samples.

Results

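The replication-dependent histone genes were described in RNA of U87 cells, an established human glioblastoma line. They were chosen by name: every protein-coding gene of GENCODE v29 whose symbol starts with HIST1H, HIST2H, HIST3H or HIST4H, with the values of its transcripts summed. The annotation holds 71 such genes, and 51 of them had at least 1 transcript in the deposited table, out of 22031 genes with a matched transcript. The mimic libraries came from cells transfected for 48 h with 50 nM of a tRF-3009a mimic, an oligonucleotide that copies a piece cut from the 3′ side of a transfer RNA. The control libraries came from cells given ssGL2 at the same dose and time, a single strand of a small interfering RNA against luciferase. All 4 libraries shared Lipofectamine 2000 as the carrier, poly(A) selection and a directional paired-end protocol. Each treatment has a library numbered 1 and a library numbered 2, and nothing in the labels says what the number marks or that libraries of a treatment came from separate cultures, so p-values measure the spread between these libraries.

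Replication-dependent histones are the core histones H2A, H2B, H3 and H4 and the linker histone H1 that package newly copied DNA. Most of their mRNA is made during DNA synthesis and is cleaved just after a conserved stem-loop, without a poly(A) tail. The stem-loop is held by SLBP, the stem-loop-binding protein, and the RNA is degraded when DNA synthesis stops. Some of the same genes also give polyadenylated RNA that runs past the stem-loop to a downstream poly(A) signal, a form known from differentiating and non-dividing cells. Poly(A)-selected libraries therefore measure only the tailed form and whatever untailed RNA is carried over.

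The stem-loops of the genes the results turn on are printed first, because the forms differ in where the RNA ends relative to this element. The 16 bases of the stem-loop are in capitals, with up to 5 flanking bases on each side, in the sense of the gene, from the GENCODE v29 transcripts on GRCh38.
HIST1H2AC: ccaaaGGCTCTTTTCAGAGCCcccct
HIST2H2AA4: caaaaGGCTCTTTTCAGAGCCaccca
HIST1H2AG: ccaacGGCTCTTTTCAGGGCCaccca
HIST1H2BD: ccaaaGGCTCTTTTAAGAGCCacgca
HIST2H2BE: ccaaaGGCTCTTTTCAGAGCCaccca
HIST1H3H: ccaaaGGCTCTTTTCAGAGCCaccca
HIST1H4H: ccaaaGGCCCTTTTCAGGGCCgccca

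The element lies at chr6:26124669-26124684 in HIST1H2AC, chr6:26158587-26158602 in HIST1H2BD and chr6:27810516-27810531 in HIST1H3H. It lies at chr6:26285131-26285146 in HIST1H4H and chr1:149886188-149886203 in HIST2H2BE, and at chr6:27133515-27133530 in HIST1H2AG and chr1:149851574-149851589 in HIST2H2AA4. Of the 31 genes with a match to this element in an annotated transcript, letting its bases 4, 10 and 13 vary, 17 had the form printed for HIST1H2AC. Counted from 1 at the 5′ end of that form, T4C and A13G occurred together in 8 of 8 H4 genes with a match. These are the bases of 1 pair of the stem. T4C occurred in 0 of 7 H2A, 0 of 11 H2B and 0 of 5 H3 genes, and A13G outside H4 only in HIST1H2AG. The loop-side change C10A was found in 3 of 11 H2B and 2 of 5 H3 genes, and C10T in 3 of 8 H4 genes.

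Recovered reads came to 33255642 in mimic 2, 28860788 in control 2, 33848402 in mimic 1 and 30153387 in control 1. Of 8 genes set as markers of a glioblastoma line 7 were listed. Their normalized values summed to 189631 in mimic 2 and 200026 in control 2 against 376312 in mimic 1 and 413221 in control 1. Of the 7, 6 were lower in number 2 at a limma adjusted p under 0.05 and 0 higher, beside 24.2% and 26.0% of all genes tested. Among them VIM was at 121239 to 276546 and CD44 at 17935 to 41466 on the scale of the normalized value, and GFAP was low at 12.5 to 29.7. Markers of other cell types summed to 301 and 313 in the number 2 libraries against 987 and 1053 in the number 1 libraries, led by SNAP25, and their part in the differences between numbers was not tested. In these bulk libraries, fewer cells of a kind and less RNA per cell cannot be told apart.

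Histone transcripts were a small share of every library and a larger one in the number 2 libraries. They took 5432 recovered reads in mimic 2, which is 0.0163% (95% Wilson interval 0.0159 to 0.0168%), and 5189 in control 2, which is 0.0180% (0.0175 to 0.0185%). They took 2718 in mimic 1, which is 0.00803% (0.00773 to 0.00834%), and 2589 in control 1, which is 0.00859% (0.00826 to 0.00892%). Both number 2 libraries thus stood above both number 1 libraries, whatever the treatment. The intervals cover counting error only.

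Of the 51 listed genes, 35 passed the filter of a mean normalized value of at least 10. They were 2 of 6 annotated H1 genes, 10 of 17 H2A, 11 of 18 H2B, 5 of 15 H3 and 7 of 15 H4 genes. The other 16 listed genes had means between 3.24 and 9.59 and were not tested, and the 20 genes without a listed transcript were not analysed here. Just outside the filter lay HIST1H2AM at 9.59 and HIST1H3C at 8.76, and just inside it HIST2H3A and HIST2H3C at 10.7.

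Levels of different genes were compared per kilobase of annotated transcript. Summed over all listed genes, the value per kilobase was 6203 in mimic 2 and 7165 in control 2, against 3463 in mimic 1 and 3949 in control 1, 1.80-fold higher in number 2. H1 transcripts summed to 1885 and 2277 in number 2 against 834 and 959 in number 1, a 2.32-fold difference. H4 transcripts summed to 778 and 870 against 382 and 436, which is 2.02-fold. In both types the number 2 libraries lay above the number 1 libraries with no overlap.

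The H2A sum was 1872 and 2176 per kilobase in number 2 against 984 and 1153 in number 1, or 1.90-fold, and 2.97-fold without transcripts that end at the stem-loop. Most of the H2A value left out belonged to the copies HIST2H2AA3 and HIST2H2AA4, whose summed values had a ratio of 1.11. The H2B sum was 1533 and 1692 against 1164 and 1324, or 1.30-fold. H3 had the lowest sums of the 5 types, 136 and 150 in number 2 against 99.8 and 77.5 in number 1, or 1.61-fold. Every type was higher in both number 2 libraries than in either number 1 library, but 2 libraries against 2 cannot go below a two-sided exact permutation p of 0.333. H2B made up 24.7% and 23.6% of the histone sum in mimic 2 and control 2, against 33.6% and 33.5% in mimic 1 and control 1, while H1 made up 30.4% and 31.8% against 24.1% and 24.3%.

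**Figure D1:**
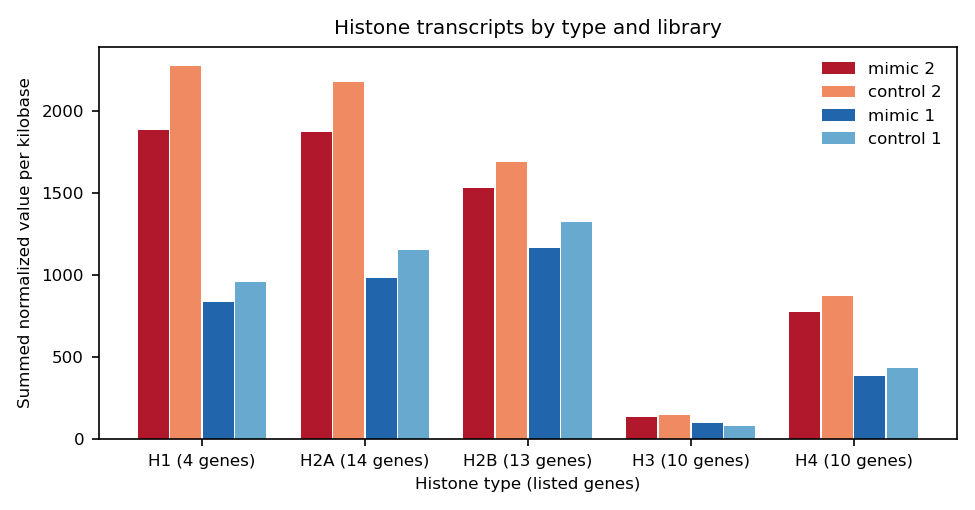
Summed normalized value per kilobase (vertical axis, from 0) of the listed genes of each histone type (horizontal axis), with 1 bar for each library. In every type both number 2 bars stand above both number 1 bars, with the smallest relative gap in H2B, at 1.30-fold.

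The comparison of number 2 with number 1 asked how histone transcripts stood where transcripts for DNA synthesis were lower. In limma's moderated test on log2(value + 1), 50.2% of the 16535 genes tested were called at an adjusted p under 0.05, 26.0% higher and 24.2% lower in number 2. Of the 35 histone genes tested, 17 were called (48.6%), close to that share in total but with 16 higher (45.7%) and 1 lower. The libraries of the numbers did not overlap for 25 histone genes that were higher and 6 that were lower, beside 38.5% and 37.2% of all genes. The median log2 difference was 0.91 for the histone genes and 0.01 for all genes, and 16 histone genes differed by more than 2-fold upward, beside 9.39% of all genes. Within the mimic libraries the median was 1.05 and within the controls 0.74. These counts cover genes that passed the filter, which a gene could do through its higher group alone.

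**Figure D2:**
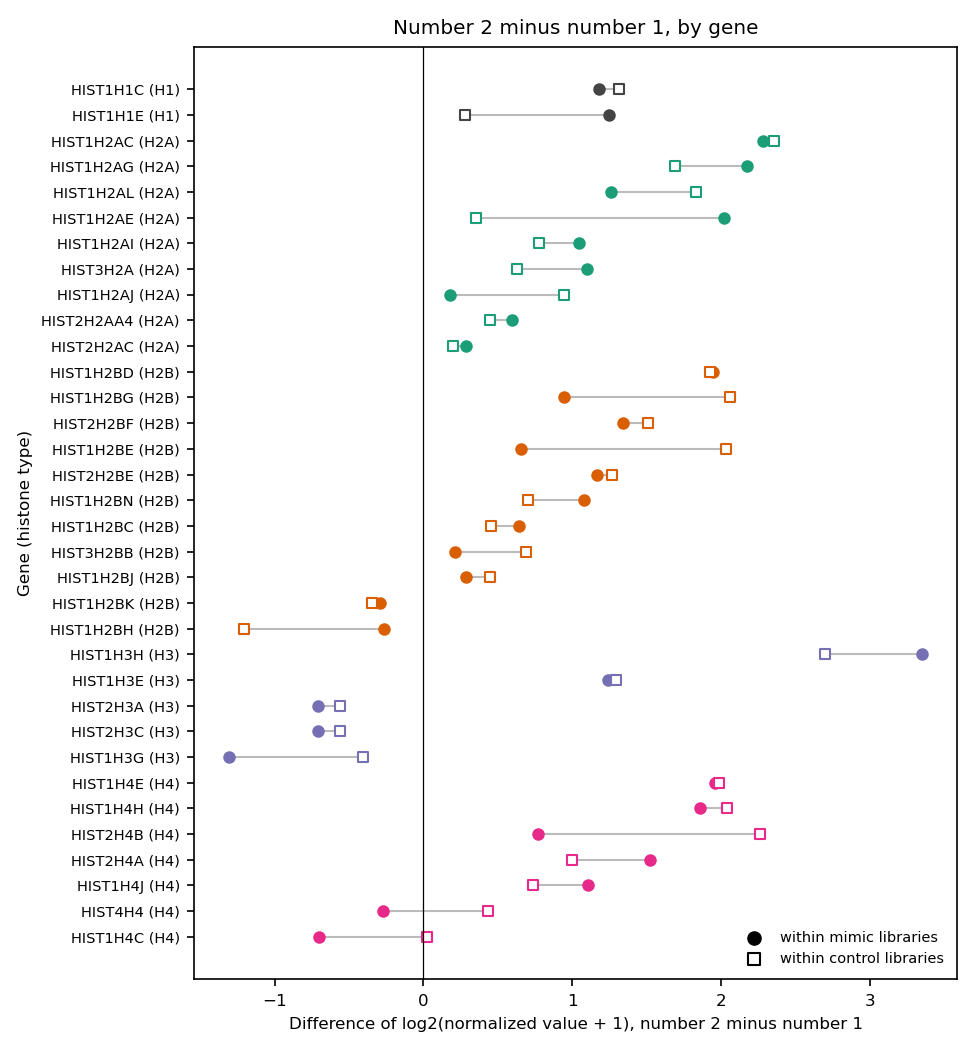
Difference of log2(normalized value + 1), number 2 minus number 1 (horizontal axis), of each histone gene past the filter (rows, by type), within the mimic libraries and within the control libraries; HIST2H2AA3, which is listed at 0 in both number 2 libraries, is left out. Most genes lie right of 0 in both treatments, up to HIST1H3H with a mean difference of 3.03.

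Among the linker histones, HIST1H1C encodes H1.2 and had the highest level per kilobase of all 51 genes, 1821 in mimic 2 and 2210 in control 2, against 803 in mimic 1 and 885 in control 1. It is a 1-exon gene on chromosome 6 at 26055787 to 26056428. Its normalized value was 1169 and 1419 in number 2 against 515 and 568 in number 1, and it rose by 1.25 ± 0.12 on the log2 scale (SE, n = 2 per number; adjusted p 3.80e-05). HIST1H1E, which encodes H1.4, stood at 31.3 and 38.1 in number 2 against 12.6 and 31.2 in number 1 and did not pass (0.76 ± 0.46; adjusted p 0.199). HIST1H1B, which encodes H1.5, had 8.54 and 3.36 in number 2 and 6.32 and 15.6 in number 1 and fell under the filter. The H1 sum was therefore almost entirely that of HIST1H1C.

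Among the H2A genes, HIST1H2AC at chromosome 6, 26124145 to 26139116, had the smallest p of all histone genes. It had 1144 in mimic 2 and 1220 in control 2 against 234 in mimic 1 and 237 in control 1, a rise of 2.32 ± 0.11 (adjusted p 6.42e-07). Both number 2 values stood far above both number 1 values, while the treatments lay close together within a number. HIST1H2AG also rose, with 105 and 103 in number 2 against 22.5 and 31.2 in number 1 (1.93 ± 0.28; adjusted p 0.000415). Both lie in the large HIST1 cluster. HIST3H2A, in the small cluster on chromosome 1, had 158 and 175 against 73.0 and 112, a rise of 0.87 ± 0.24 (adjusted p 0.0131). HIST1H2AE had 43.4 and 33.7 against 9.96 and 26.1 and did not pass (1.19 ± 0.48; adjusted p 0.0659). HIST1H2AJ, at 9.38 and 27.1 against 8.15 and 13.6, overlapped between the numbers (0.57 ± 0.60; adjusted p 0.466).

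The H2A gene HIST2H2AA3 was the only histone gene called lower, and its value cannot be separated from that of its copy. It was listed at 0 in mimic 2 and control 2, against 97.7 in mimic 1 and 49.0 in control 1. Of its 31-base words, 0% are absent from other genes, because HIST2H2AA4 holds the same sequence at another place on chromosome 1. HIST2H2AA4 had 305.5 in mimic 2 and 427 in control 2, against 202 in mimic 1 and 313 in control 1, and did not pass (0.52 ± 0.23; adjusted p 0.0866). The copies summed to 305.5 and 427 in number 2 against 299 and 362 in number 1, a ratio of 1.11, and the number 2 range overlapped the number 1 range.

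Of the 11 H2B genes past the filter, 5 were called (45.5%), beside 50.2% of all genes tested. All 5 were higher, beside 26.0% of all genes. HIST1H2BD at chromosome 6, 26158146 to 26171349, had 267 in mimic 2 and 276 in control 2 against 68.5 in mimic 1 and 71.9 in control 1 (1.93 ± 0.17; adjusted p 2.48e-05). HIST2H2BE at chromosome 1, 149884459 to 149886652, stood at 322 and 374 in number 2 against 143 and 155 in number 1 (1.22 ± 0.15; adjusted p 0.000197). Both genes are known sources of polyadenylated H2B mRNA. HIST1H2BK, the most abundant H2B gene per kilobase, stood at 230 and 259 in number 2 against 281 and 329 in number 1 and was not called (−0.32 ± 0.15; adjusted p 0.108), although its libraries did not overlap. Only 13.7% of the 31-base words of HIST1H2BK are absent from other genes. The H2B genes thus included HIST1H2BD, 3.82-fold higher, and HIST1H2BK, the top of the type, whose values lay lower in number 2.

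The H3 genes were few and low, and they were split. HIST1H3H at chromosome 6, 27810064 to 27811300, had 27.6 in mimic 2 and 25.8 in control 2 against 1.80 in mimic 1 and 3.12 in control 1, the largest rise of any histone gene at 3.03 ± 0.57 (adjusted p 0.00206). HIST1H3E had 63.0 and 82.9 against 26.1 and 33.2 and also rose (1.27 ± 0.30; adjusted p 0.00648). HIST1H3G had 6.68 and 12.3 against 18.0 and 16.6 and did not pass (−0.85 ± 0.51; adjusted p 0.198). HIST2H3A and HIST2H3C are identical copies that each carry the same listed value, 19.1 and 13.4 in number 2 against 32.4 and 20.8 in number 1 when summed, a ratio of 0.612. The median over the 5 H3 genes was −0.63, with those copies counted as 2 genes.

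The H4 genes encode nearly the same protein from many loci. HIST1H4H at chromosome 6, 26277609 to 26285638, had 117 in mimic 2 and 157 in control 2 against 31.5 in mimic 1 and 37.4 in control 1, a rise of 1.95 ± 0.26 (adjusted p 0.000250). HIST1H4J had 71.2 and 79.1 against 32.5 and 47.0 (0.92 ± 0.28; adjusted p 0.0232), with 17.8% of its 31-base words absent from other genes. HIST2H4A stood at 180 and 268 in number 2 against 62.2 and 133 in number 1 (1.26 ± 0.34; adjusted p 0.0123), and HIST2H4B had 220 and 133 against 129 and 27.0 (1.52 ± 0.59; adjusted p 0.0571). HIST2H4A and HIST2H4B share nearly all their sequence, and their sum was 401 and 401 in number 2 against 191 and 160 in number 1, or 2.28-fold. The median over the 7 H4 genes was 1.26.

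Of the 17 calls, 8 held in each of 15 alternative settings in which they were tested. The higher ones among these 8 were HIST1H1C, HIST1H2AC, HIST1H2AG, HIST1H2BD, HIST1H3H, HIST1H4H and HIST2H2BE. Leaving out mimic 2 left 10 histone genes called, as did leaving out control 2, while the count over all genes became 5163 and 5430. Without mimic 2 the calls of HIST1H2AL, HIST1H2BN, HIST1H4E, HIST1H4J, HIST2H2BF, HIST2H4A and HIST3H2A were lost. Without control 2 those of HIST1H2AL, HIST1H2BG, HIST1H2BN, HIST1H3E, HIST1H4J, HIST2H4A and HIST3H2A were lost. The calls of HIST1H2BN, HIST1H4J, HIST2H4A and HIST3H2A were also lost without mimic 1, and that of HIST1H2AL without control 1.

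Where the transcripts end was examined next. Of 70 listed histone transcripts, 8 end within 60 bases of the stem-loop, 29 run past it by 86 to 1917 bases with a median of 1022, and 33 hold no match. Of the 33 without a match, 22 have a length that is a multiple of 3 and under 700 bases, as a model of the coding part alone would. A poly(A) signal, AATAAA or ATTAAA, stood in the last 50 bases of 19 of the 29 that run past, 4 of the 8 that end at the stem-loop and 6 of the 33 without a match. The annotated end does not show where the RNA in the libraries ended, since reads inside the coding part fit either form.

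Transcripts that run past the stem-loop summed to 2010 and 2190 in number 2 against 807 and 839 in number 1, or 2.55-fold. Those that end at it summed to 507 and 620 against 363 and 468, or 1.36-fold, and those without a match were 2.12-fold higher. The share of the histone sum in transcripts that end at the stem-loop was 9.81% in mimic 2 and 10.7% in control 2, against 14.8% in mimic 1 and 17.4% in control 1. The share in those that run past it was 38.9% and 37.6% against 33.0% and 31.1%. Among the transcripts past the filter, the median log2 difference was 1.23 for 22 that run past, 0.92 for 6 that end at the stem-loop and 0.76 for 15 without a match. The difference between these classes was not tested. Among transcripts that end at the stem-loop, those of HIST2H2AA3, HIST2H2AA4, HIST1H2BD and HIST1H4J carry a poly(A) signal near their annotated end. Those of HIST1H2AE, HIST1H2AI, HIST1H2BE and HIST1H4H do not. The classes therefore do not separate untailed from tailed RNA. The ending class was carried mainly by HIST2H2AA4 and its copy HIST2H2AA3, so its sum and share rest mostly on that pair. The copies summed to 305.5 and 427 in number 2 against 299 and 362 in number 1, a ratio of 1.11. The other transcripts of the class past the filter, of HIST1H2AE, HIST1H2AI, HIST1H2BD and HIST1H4J, differed by 1.19, 0.91, 1.74 and 0.92.

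**Figure D3:**
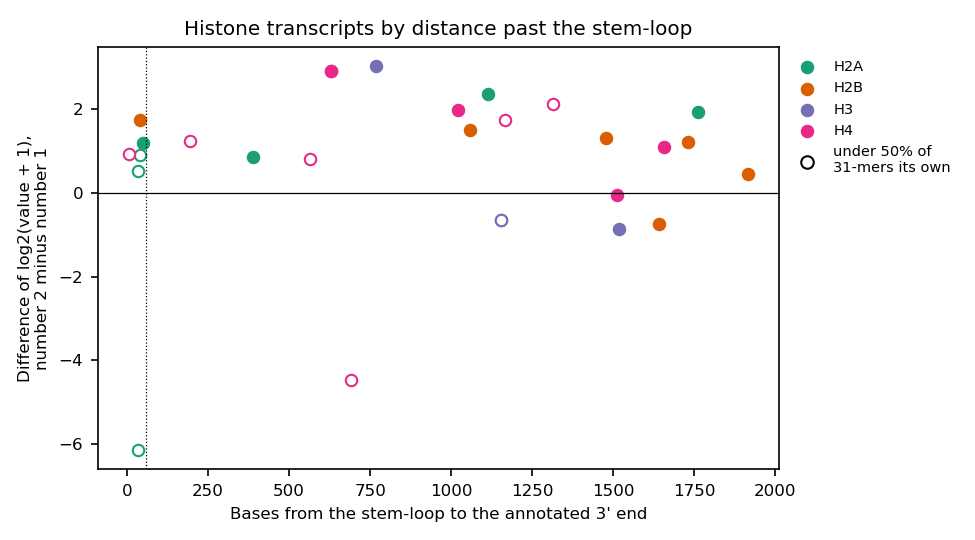
Bases from the stem-loop to the annotated 3′ end (horizontal axis) and difference of log2(normalized value + 1), number 2 minus number 1 (vertical axis), for each listed histone transcript past the filter with a stem-loop match; open points have under 50% of their 31-base words to themselves, and the dotted line marks 60 bases. Of the 22 points that run past the stem-loop 16 lie above 0, and of the 6 that end at it 5 do.

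In HIST1H2AC both listed forms were higher in number 2. The 1654-base form that runs 1114 bases past the stem-loop had 580 in mimic 2 and 651 in control 2 against 108 in mimic 1 and 130 in control 1. The 1462-base form, spliced so that it lacks the stem-loop, had 564 and 569 against 126 and 107. In HIST1H2BD the spliced form without the stem-loop stood at 218 and 225 in number 2 against 59.5 and 50.0 in number 1. The form that ends 39 bases after the stem-loop had 49.1 and 50.5 against 9.05 and 21.9. In both genes every form was higher in number 2, in both treatments.

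HIST1H4H has forms that end 18, 630 and 1655 bases after the stem-loop. The shortest had 19.7 in mimic 2 and 7.90 in control 2 against 0.906 in mimic 1 and 0 in control 1. The 630-base form is listed in 2 rows of identical sequence, each with 22.9 and 40.4 in number 2 against 1.80 and 5.20 in number 1. The longest had 51.6 and 68.4 against 27.0 and 27.0, so the ratio between numbers was larger for the shorter forms, which was not tested. HIST2H2BE and HIST1H3H each have 1 listed form, running 1729 and 769 bases past the stem-loop.

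Many H2A and H2B genes lie head to head, so the stretch between them serves both. Within 1000 bases of each other 12 such pairs of histone starts were annotated, 11 of them of H2A with H2B, with 219 to 357 bases between the starts. Both partners passed the filter in 5 pairs, and in none of the 5 were both called in this test. HIST1H2BG and HIST1H2AE were both called once treatment was a term (limma adjusted p 0.0167 for HIST1H2AE) or control 1 was left out (0.0142). HIST1H2AC had a log2 difference of 2.32 and its partner HIST1H2BC of 0.55 (adjusted p 0.102). HIST1H2AG had 1.93 and HIST1H2BJ 0.37 (adjusted p 0.243), HIST2H2BE had 1.22 and HIST2H2AC 0.24 (adjusted p 0.552). HIST1H2BG, with 1.50 (adjusted p 0.00754), faced HIST1H2AE at 1.19, and HIST3H2A at 0.87 faced HIST3H2BB at 0.45 (adjusted p 0.429). In each pair the called partner had the larger difference, which follows largely from calling on that difference. The difference between partners was not tested.

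The promoter windows of HIST1H2AC and HIST1H2BC, 250 bases before to 50 after each start, are shown because they read the same stretch from opposite strands, and that of HIST1H1C because it was the most abundant gene. They are from RefSeq on GRCh38.p14, and capitals mark any match, on either strand, to TATAAA, the TATA box, to CCAAT, a box common in promoters, to ATTTGCAT, the octamer, or to AAACACA, the H1 box. The windows are chr6:26123922-26124221 on the plus strand, chr6:26123877-26124176 on the minus strand and chr6:26056421-26056720 on the minus strand.
HIST1H2AC: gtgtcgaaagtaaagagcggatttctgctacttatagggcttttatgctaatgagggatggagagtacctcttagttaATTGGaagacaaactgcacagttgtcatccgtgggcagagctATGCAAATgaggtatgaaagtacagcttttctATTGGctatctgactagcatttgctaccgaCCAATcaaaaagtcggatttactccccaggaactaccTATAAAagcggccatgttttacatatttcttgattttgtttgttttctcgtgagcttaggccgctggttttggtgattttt
HIST1H2BC: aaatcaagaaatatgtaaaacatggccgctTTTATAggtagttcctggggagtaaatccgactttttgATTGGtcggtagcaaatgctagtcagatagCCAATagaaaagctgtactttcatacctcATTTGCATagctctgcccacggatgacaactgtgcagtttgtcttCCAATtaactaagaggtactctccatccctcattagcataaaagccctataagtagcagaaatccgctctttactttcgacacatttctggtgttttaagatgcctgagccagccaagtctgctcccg
HIST1H1C: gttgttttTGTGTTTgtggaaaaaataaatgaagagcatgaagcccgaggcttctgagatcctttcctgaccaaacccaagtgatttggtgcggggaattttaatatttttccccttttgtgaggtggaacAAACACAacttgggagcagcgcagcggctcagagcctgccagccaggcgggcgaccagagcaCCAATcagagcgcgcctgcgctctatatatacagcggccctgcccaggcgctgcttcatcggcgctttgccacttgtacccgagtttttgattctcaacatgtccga

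RefSeq windows were found for 61 of the 71 genes. A CCAAT match was present in 100% of the H1, H2A, H2B and H3 windows, in 23.1% of 13 H4 windows and in 34.6% of all 35116 promoters of the same length. The octamer was present in 11 of 14 H2A and 14 of 18 H2B windows, in 0 of 6 H1 and 0 of 13 H4 windows and in 1.77% of all promoters. AAACACA was present in 6 of 6 H1 windows and in 5.64% of all promoters, and TATAAA in 65.6% of the histone windows and 11.5% of all promoters. Overlapping windows of head-to-head partners share matches. The windows of HIST1H2AC and HIST1H2BC both hold the octamer, TATAAA and CCAAT. HIST1H4H, which rose, has none of the 4 in its window. A match is a description and not a site in use.

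Transcripts for DNA synthesis moved the other way from the histone sum. Of 38 genes on that list all 38 were called lower in number 2, beside 24.2% of all genes tested, with a median log2 difference of −1.90. This lower level was known when the comparison was chosen. The values of the 38 genes summed to 25913 in mimic 2 and 29622 in control 2 against 102105 in mimic 1 and 105693 in control 1. TYMS, which makes thymidylate, stood at 664 and 806 in number 2 against 4727 and 5088 in number 1, and MCM4, a subunit of the replicative helicase, had 1564 and 1894 against 7263 and 7227. All 7 proliferation genes were called lower, beside the same 24.2%, among them MKI67 with 2108 and 2003 against 13035 and 13268. The normalized values of the listed histone genes summed to 5164 and 5818 in number 2 against 2449 and 2694 in number 1, 2.14-fold. That is 19.9% and 19.6% of the DNA synthesis sum in number 2, against 2.40% and 2.55% in number 1. The part of these lists in the histone difference was not tested.

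Replication-independent histones, most of which carry ordinary poly(A) tails and are made also outside DNA synthesis, had a sum ratio of 1.02. They moved in both directions, with 4 called higher and 6 lower of 10, beside 26.0% and 24.2% of all genes tested. H1F0, the linker histone H1.0 of resting cells, had 8995 in mimic 2 and 8777 in control 2 against 1362 in mimic 1 and 1351 in control 1 and rose by 2.71. H3F3B, which encodes H3.3, rose by 0.25, with 20401 and 20502 against 17562 and 16737. On the lower side H2AFX, the histone phosphorylated at DNA breaks, had 606 and 644 against 1357 and 1642, and H2AFZ had 10442 and 11467 against 16854 and 15465. Both of these and H2AFY, which encodes macroH2A, were called lower.

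Of 24 genes for histone pre-mRNA processing and turnover, 7 were called higher and 11 lower, beside 26.0% and 24.2% of all genes tested. SLBP had 1619 in mimic 2 and 1596 in control 2 against 2699 in mimic 1 and 2789 in control 1, a fall of 0.77 on the log2 scale. CCNE2, a cyclin of the start of DNA synthesis, had 110 and 104 against 757 and 748, and SRRT had 1499 and 1726 against 3465 and 3824. CPSF2, of the cleavage complex, rose by 0.32, and UPF1, a helicase of histone mRNA decay, by 0.42. NPAT, the histone locus coactivator, had 439 and 466 against 512 and 506 and was not called. SLBP and NPAT were named after their values were seen. Of 16 histone chaperones 10 were called lower and 1 higher, beside 24.2% and 26.0% of all genes. HJURP, which loads the centromeric histone, fell by 2.35.

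RNAs without a poly(A) tail were counted as a measure of carry-over. The 5 tested had adjusted p from 0.0803 to 0.904, and the summed value of the listed ones was 5408 and 5561 in number 2 against 5680 and 6072 in number 1. RN7SL2, of the signal recognition particle, had 3585 and 3605 against 3612 and 3707. RN7SL1 had 1744 and 1894 against 1982 and 2294. The part of carry-over in the histone difference was not tested.

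The other protein-coding genes between the first and last HIST1 gene, from 25726132 to 27893843 on chromosome 6, had a sum ratio of 1.06. Of 13 tested, 3 were called higher and 4 lower, beside 26.0% and 24.2% of all genes. ZNF322, a zinc finger gene, stood at 991 and 1115 in number 2 against 506 and 453 in number 1, and TRIM38 had 1512 and 1468 against 797 and 792. BTN3A2, a butyrophilin, was called lower. AL031777.3 had 81.0 and 112 against 5.40 and 14.6, and it lies on the strand of HIST1H2AD and HIST1H3D and overlaps both. Of the histone genes past the filter, 9 are overlapped by another listed gene, 3 of them on the same strand.

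**Figure D4:**
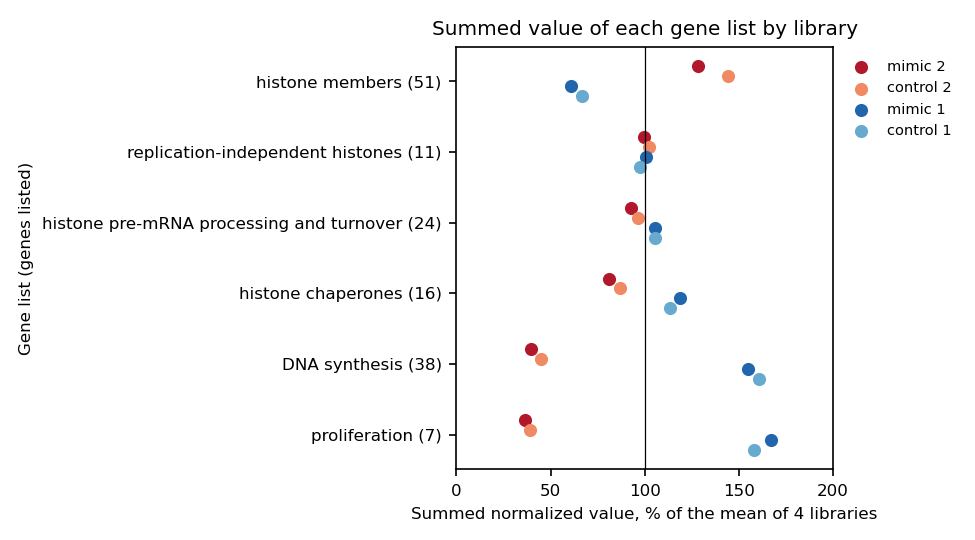
Summed normalized value of each gene list (rows) as a percentage of the mean of the 4 libraries (horizontal axis, 100 marked by a line), with 1 point for each library. The histone sum is higher and the DNA synthesis and proliferation sums are lower in both number 2 libraries.

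The study's own question was what the mimic changes relative to ssGL2. Of 16535 genes 0.0% were called by limma without a term for the number, and 0 of the 35 histone genes, with an unadjusted p under 0.05 at 26 genes (0.157%) and 0 histone genes. edgeR and DESeq2 on recovered reads, also without that term, called 0 genes, with an unadjusted p under 0.05 at 35 and 23. On simulated counts with the number difference, the limma test recovered 0 of 100 changes of 2-fold and 0 of 100 of 4-fold. The lack of calls therefore cannot show that the mimic changed nothing. The histone values nonetheless lay mostly below those of the controls. The mean was lower in the mimic for 25 of 35 genes (71.4%), beside 53.8% of all genes, and lower within both numbers for 18 (51.4%), beside 27.7% of all genes. The libraries did not overlap for 2 histone genes that were lower, beside 6.21% of all genes, and for 0 that were higher, beside 6.18%.

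The median log2 difference, mimic minus control, was −0.20 over the histone genes and −0.01 over all genes. It was −0.15 within number 2 and −0.11 within number 1. The sum per kilobase over all types was 0.87-fold that of the control in number 2 and 0.88-fold in number 1. The gap between mimic and control was smaller than the gap between the numbers in every type. The number difference enters the spread within each treatment, against which this test is set.

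By type, the H1 sum in the mimic was 0.83-fold the control sum in number 2 and 0.87-fold in number 1. H2A was at 0.86 and 0.85, H2B at 0.91 and 0.88 and H4 at 0.89 and 0.88. H3, the lowest type, was at 0.91 in number 2 and 1.29 in number 1. The types other than H3 thus lay below the control in both numbers.

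HIST2H2AA4 stood at 305.5 in mimic 2 and 202 in mimic 1, below both control 2 with 427 and control 1 with 313, with no p under the threshold (−0.56 ± 0.36; adjusted p 1.00). HIST1H2AJ had 9.38 and 8.15 against 27.1 and 13.6 (−1.05 ± 0.58). These are the 2 genes whose mimic libraries both lay below both control libraries. HIST1H1E had 31.3 and 12.6 in the mimic against 38.1 and 31.2 in the control (−0.76 ± 0.60). HIST2H4B had 220 and 129 in the mimic against 133 and 27.0 in the control (1.47 ± 0.87), and its copy HIST2H4A 180 and 62.2 against 268 and 133 (−0.83 ± 0.69). The copies differed in opposite directions, and their sum was 401 and 191 in the mimic against 401 and 160 in the control. HIST1H2AC and HIST1H2BD, with the clearest differences between numbers, had −0.06 each between treatments.

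**Figure D5:**
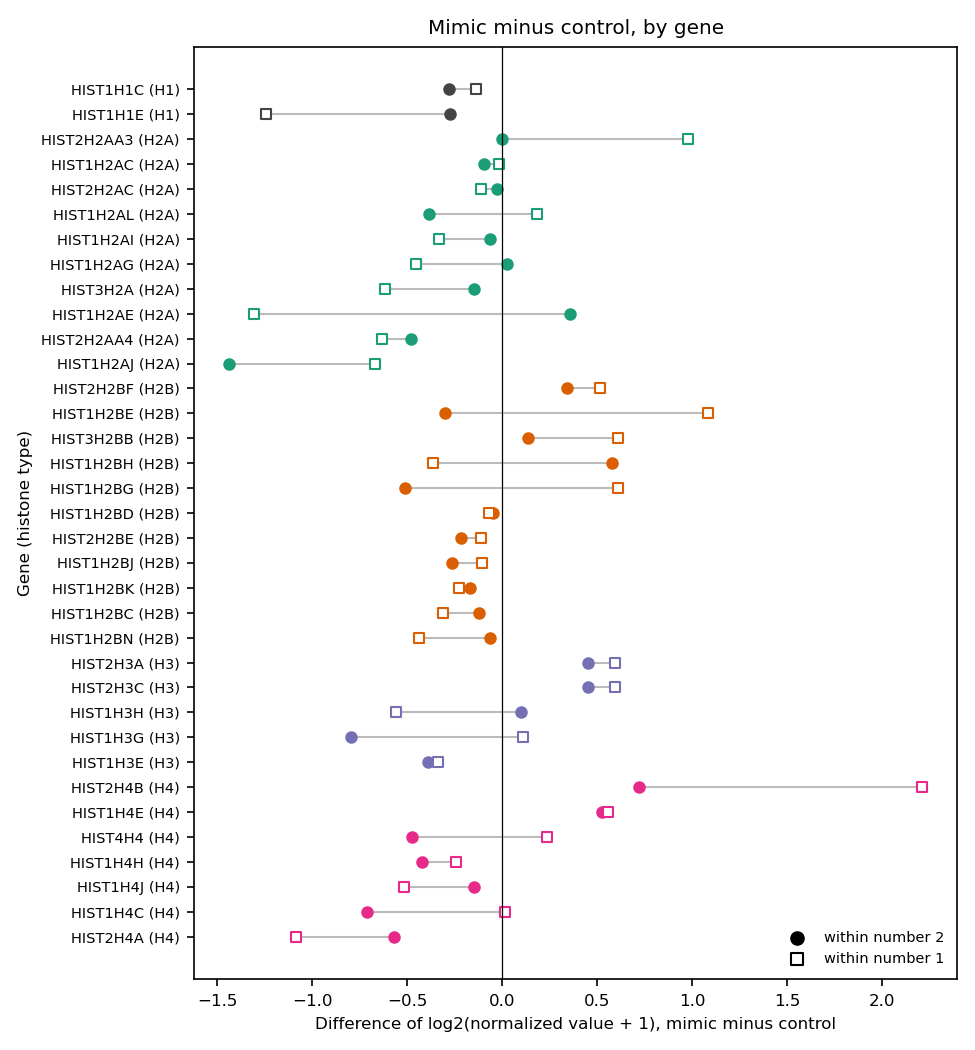
Difference of log2(normalized value + 1), mimic minus control (horizontal axis), of each histone gene past the filter (rows, by type), within number 2 (filled circles) and within number 1 (open squares). Most genes lie left of 0, 18 of 35 in both numbers, and no gene passed the test without a term for the number.

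The lists for DNA synthesis, proliferation, replication-independent histones, chaperones, histone pre-mRNA processing, RNAs without a tail and other HIST1-region genes were also compared between mimic and control. None of their genes was called by limma without a term for the number, a test that cannot decide whether they changed. The DNA synthesis sum in the mimic was 0.946-fold and the sum of replication-independent histones 1.00-fold that of the control. The histone sum was 0.894-fold.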

How the data were processed

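Poly(A)-selected RNA of 4 libraries, 2 per treatment, was sequenced as pairs, per the labels' protocols. Per the submitters' processing notes, kallisto, DESeq2 and hg38 were used; versions and the annotation release are not given in the sources used here. The authors deposited a signal per transcript: estimated reads divided by a size factor, as the values show. Of low values, 95.6% to 99.7% were whole multiples of 1 read within a tolerance of 0.1, and the reads recovered that way were used for edgeR and DESeq2. They are approximate, as the factor varies slightly between rows. Transcripts with under 10 recovered reads over all libraries were not in the table.

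Of 100809 rows, 89.9% matched GENCODE v29 by identifier without version and were summed per gene, 2 histone transcripts under another version; the rest held 3.25% to 3.56% of the values. Sample columns left unused numbered 0. Genes with a mean of at least 10 were tested with limma's trend method on log2(value + 1), two-sided, with Benjamini-Hochberg adjustment over all 16535 genes at 0.05. A fold change on this scale understates that of low genes. Tests had no term for the replicate number. Reads of copies and overlapping genes can be split among them when reads are assigned to transcripts. Own sequence was the percentage of 31-base words found in no other annotated gene.

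The members, lists and tests were chosen with earlier results of these data known. Genes were named by a rule: of each type the 3 highest means, the 5 smallest p-values in each comparison and the 5 highest stem-loop-ending genes, and of each list beside them the 4 highest means and the smallest p-values. HIST1H2AG, HIST1H2BC and the other head-to-head partners, the identical copies and genes at the filter were named for their place or calls after their values were seen. Alternatives were other pseudocounts, filters, scalings, tools and lengths, and each library left out. In simulated counts the changes were placed only in genes with a mean of at least 50, with the same noise setting for all genes. Many tested histone genes have lower means, such as HIST1H3H at 14.6, and recovery for them was not measured. On simulated counts without a number difference, over 16327 genes, the test between numbers recovered 79 of 100 changes of 2-fold and 100 of 100 of 4-fold. It made 11 false calls. On simulated counts with the number difference, over 16109 genes, the test of mimic against control recovered 0 of 100 and 0 of 100, and with the number as a block 86 of 100 and 100 of 100, with 6 false calls. R 4.3.3, limma 3.58.1, edgeR 4.0.16, DESeq2 1.42.0, with Python 3.11.15 for tables (pandas 2.3.3, numpy 2.4.6), intervals (scipy 1.17.1) and plots (matplotlib 3.10.9), were the software.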

Additional observations from a re-analysis of the deposited data

How the results depend on the processing

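With all libraries in, HIST1H3H alone among the named histone genes changed the sign of a difference under an alternative, at 0.03 with edgeR and 0.03 with DESeq2 between mimic and control, neither called. Added after the data were seen were the restriction to genes with mostly own sequence and edgeR with a block or treatment term. With each library left out in turn, the median difference between mimic and control (−0.20) ranged from −0.72 to 0.26, since the numbers are then unequal between treatments, and the median between numbers (0.91) from 0.67 to 1.11. Genes called between numbers ranged from 5163 to 7942 and histone genes from 10 to 19. The fold of the sum per kilobase ranged from 2.10 to 2.54 for H1, 1.75 to 2.06 for H2A, 1.22 to 1.39 for H2B, 1.43 to 1.84 for H3, 1.89 to 2.16 for H4 and 1.67 to 1.93 for all types. With transcript lengths less 200 bases it was 1.76 for H2A, 1.17 for H2B, 1.94 for H4 and 1.67 for all, and without transcripts that end at the stem-loop 2.97, 1.25, 1.95 and 1.91.

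The median between mimic and control was −0.16 with a pseudocount of 5, −0.10 without a filter, −0.17 with upper-quartile scaling, −0.22 without H2B and −0.40 for transcripts that end at the stem-loop. The median between numbers was 1.26 at a mean of at least 50 and 1.23 for genes with at least 50% own sequence. With the same transcript version only, 3965 genes were called between numbers. For values that moved, the cause was not tested.

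Libraries share only a number, and their deviations from the treatment means correlated across genes at 0.75. With the number as a replicate block, limma called 117 of 16535 genes and edgeR 91 between mimic and control. In each case 2 of the 35 histone genes were called: HIST2H4B, at 1.47 and 1.36, and its copy HIST2H4A, at −0.83 and −0.80, in opposite directions. With treatment as a term, limma called 20 histone genes between numbers. Without it the count was 17, where 48.6% of the histone genes and 50.2% of all genes were called. The share of all genes called with that term is not given here, so the 20 cannot be read as an excess. The 2 libraries per group limit every p.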
